A study of Mus musculus with 12 samples.

Results

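The comparison concerned what 6 weeks of PF-044, which blocks EP2, a receptor for prostaglandin E2, did to gene expression in peritoneal macrophages of young mice. Its samples were chosen by their labels. There were 3 from mice of 3 to 4 months that received PF-044 by oral gavage at a daily dose of 2.5 mg/kg, and 3 from mice of the same age whose agent is given as none. These are 6 of the 12 samples of the series, and the other 6 came from mice of 20 to 22 months, split in the same way. The series describes 3 mice per group. The sources used here do not say whether the untreated mice were gavaged, and they name no sex, strain or cell sorting step. Total RNA was read on the NanoString nCounter, in which a barcoded probe for each gene is hybridised and counted without amplification. Of the 1448 genes in the table, 1111 stood above its lowest value, 20 on the linear scale, in at least 1 of the 6 samples, and these are the genes described here. The other 337 genes were listed at that floor in all 6.

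Prostaglandin E2 is a lipid made from arachidonic acid by the cyclooxygenases and by prostaglandin E synthases. It acts through the receptors EP1 to EP4, encoded by Ptger1 to Ptger4. EP2 and EP4 couple to Gs and raise cyclic AMP, which activates protein kinase A and, through CREB, genes that carry cyclic AMP response elements. Macrophages make and respond to the lipid, and in them it changes cytokine output, phagocytosis and metabolism. The peritoneal cavity holds large resident macrophages, smaller macrophages derived from monocytes, many B cells, and some T, mast and other cells.

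Levels are given as the deposited log2 values, in which the floor stands at 4.32. The steps between the low values showed totals of 644844 to 927614 count equivalents per young sample. Genes at the floor numbered 404 to 433 per young sample, and replicates correlated at 0.9938 to 0.9962 over the tested genes. The macrophage genes Itgam, Adgre1 and Csf1r were above the floor in all 6 samples, and so were the B cell gene Ms4a1 and the T cell gene Cd3d, which macrophages are not known to express. In bulk RNA of this kind, fewer cells of a type and less RNA per cell cannot be told apart. Because the probes differ between genes, levels are compared between samples and not between genes.

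PF-044 separated the young samples. The first principal component, which carried 60.7% of the variance, put the treated samples at -6.28, -4.08 and -5.00 and the untreated ones at 4.56, 5.57 and 5.24. In a limma fit to these 6 samples, 280 of 1111 genes (25.2%) passed at a Benjamini-Hochberg adjusted p under 0.05, and 433 had an unadjusted p under 0.05. Of the genes that passed, 172 (15.5% of those tested) rose and 108 (9.72%) fell. The counts of each list below are to be read beside these shares. Most changes were small, with a median size of 0.43 among the genes that passed. A rise over 1.5-fold was seen in 40 of them and a fall of that size in 32. Just 1 gene, Ccr2, rose over 2-fold, and 4 genes fell over 2-fold: Hspb1, Cfb, Cxcr4 and Ccr7. The treated and untreated samples did not overlap at all for 469 genes (42.2%), 298 of them higher and 171 lower with PF-044.

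The split between rises and falls depended on the scaling, whereas no gene named here as changed turned its direction under any scaling or with any sample left out. With each sample centred on the median of the tested genes, 119 genes rose and 147 fell. The values lay on steps in 3 gene sets, a number fixed before the steps were searched. The sets held 540, 285 and 129 genes above the floor in all 6 samples. Among these genes, 110 rose and 29 fell in the largest set, with a median change of 0.07. In the second set 39 rose and 52 fell, and in the third 17 and 20. The number of genes that passed dropped to 150 without treated replicate 1, to 174 without treated replicate 3, to 158 without untreated replicate 2 and to 128 without untreated replicate 3. Of the 280 genes, 108 passed in every one of the 6 fits that left out a sample, and these are called robust to the choice of samples below.

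**Figure D1:**
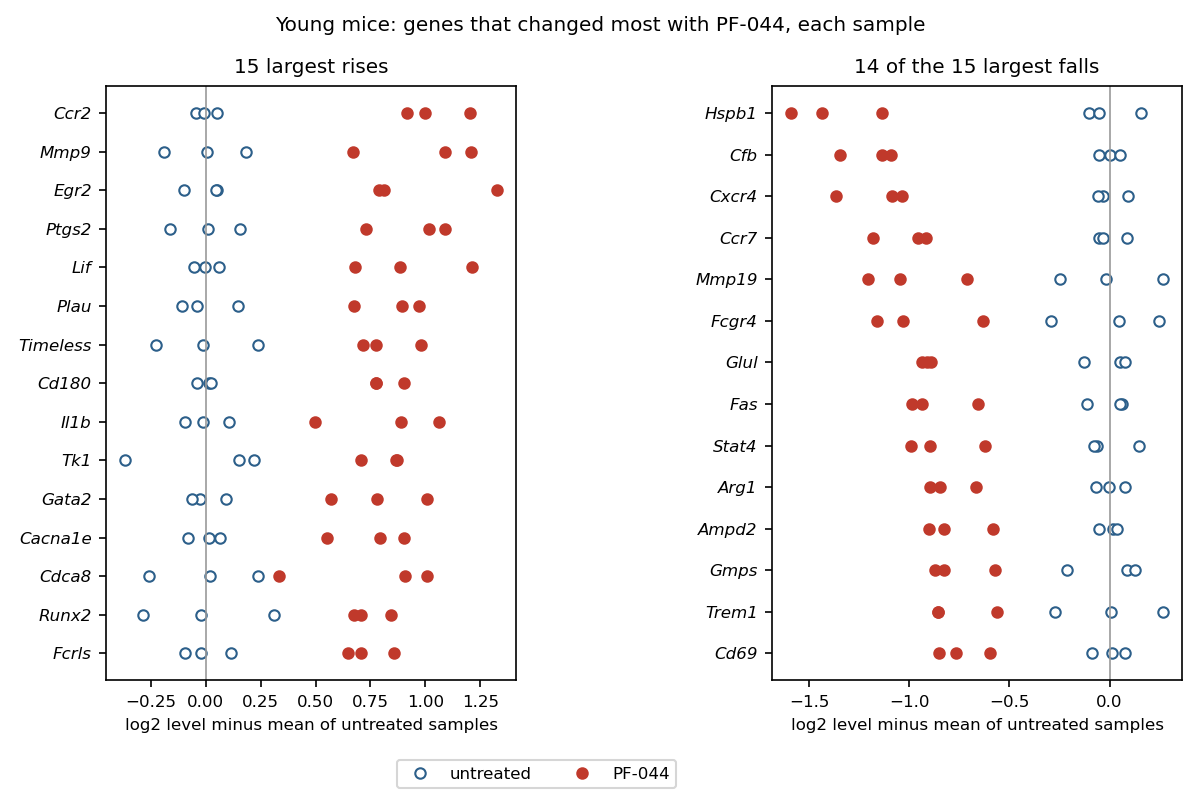
The 15 largest rises and 14 of the 15 largest falls in young mice. Each point is 1 sample, placed by its log2 level minus the mean of the 3 untreated samples (open circles, untreated; filled circles, PF-044). In all 29 genes the treated samples lie to one side of the untreated ones.

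Among the genes of the prostaglandin pathway, the inducible cyclooxygenase rose and the receptor targeted by the drug did not pass. Ptgs2, which encodes COX-2, stood at 7.59, 7.67 and 7.30 in the treated samples and at 6.58, 6.73 and 6.41 in the untreated ones. Every treated sample was above every untreated one. The rise was 0.95 ± 0.13 (SE; 1.93-fold; adjusted p = 0.00382) and it was robust to the choice of samples. Ptgs1, which encodes the constitutive COX-1, fell by 0.21 (adjusted p = 0.0277), and Tbxas1, the thromboxane synthase, fell by 0.26 (adjusted p = 0.0151). Ptger2, the gene of EP2 itself, read 5.31, 5.18 and 5.70 with PF-044 and 5.44, 5.57 and 5.75 without, overlapping ranges with a difference of -0.19 ± 0.16 (adjusted p = 0.4). Its 43 to 69 count equivalents per sample leave small differences undetectable. Ptger4, the gene of the other receptor that couples to Gs, rose by 0.55 ± 0.14 (adjusted p = 0.0272), from 7.18, 7.58 and 7.09 to 7.97, 7.72 and 7.82. Ptgir, the prostacyclin receptor, rose by 0.33 (adjusted p = 0.0223). Ptger3 differed by -0.23 (adjusted p = 0.182) and the synthase Ptges by -0.07 (adjusted p = 0.7), and Ptger1 was at the floor. In all, 3 of the 13 tested genes of the pathway rose and 2 fell, with a median change of -0.02 beside 0.04 over all genes. Apart from that of Ptgs2, each of these calls was lost without treated replicate 1, among others, with adjusted p up to 0.122 for Ptger4.

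Immediate-early genes, which signalling induces within minutes and many of which CREB drives, moved in both directions. Egr2, a zinc finger transcription factor, read 6.07, 5.55 and 5.53 with PF-044 and 4.79, 4.64 and 4.79 without, a rise of 0.98 ± 0.16 (adjusted p = 0.00597). The orphan nuclear receptors Nr4a1 and Nr4a2 rose alike. Nr4a1 went from 9.87, 9.69 and 9.66 to 10.55, 10.31 and 10.38, by 0.68 ± 0.08 (adjusted p = 0.0025), and Nr4a2 from 7.64, 7.53 and 7.60 to 8.40, 8.29 and 8.12, by 0.68 ± 0.09 (adjusted p = 0.00254). Dusp1, a phosphatase that switches off MAP kinases, went the other way. It stood at 11.58, 11.61 and 11.52 in treated and 11.95, 11.98 and 11.98 in untreated samples, a fall of 0.40 (adjusted p = 0.00222). These 4 genes showed no overlap between the groups and were robust to the choice of samples. Ier3 rose (0.24), and Fosb, Jun and Cebpb fell (-0.42, -0.31 and -0.27), each with a call lost when 1 of several samples was left out and adjusted p up to 0.131. Fos stood at 13.13 to 13.33 in all 6 samples and did not pass (0.08; adjusted p = 0.459). The list thus held 4 rises and 4 falls among 17 tested genes, with a median of -0.02. Crem, a CREB family member that cyclic AMP induces, fell by 0.50 (adjusted p = 0.0198) and Gnas, which encodes Gs alpha, rose by 0.32 (adjusted p = 0.0299). Of the cyclic AMP genes those were the 2 that passed among 5 tested, and leaving out a sample took the adjusted p up to 0.0744 for Crem and 0.139 for Gnas.

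The promoters of 3 of these genes are shown because they hold the letters of the CREB element, in full or as its short site, while the genes moved in opposite directions. Each is the 250 bases before the start in RefSeq on GRCm38.p6, 5′ to 3′ on the gene's strand, with capitals for the full element TGACGTCA and for the short site TGACG on either strand (read as CGTCA on the other). Nr4a1 lies at chr15:101266596-101266845 (+), Nr4a2 at chr2:57124004-57124253 (-) and Dusp1 at chr17:26508473-26508722 (-).
Nr4a1: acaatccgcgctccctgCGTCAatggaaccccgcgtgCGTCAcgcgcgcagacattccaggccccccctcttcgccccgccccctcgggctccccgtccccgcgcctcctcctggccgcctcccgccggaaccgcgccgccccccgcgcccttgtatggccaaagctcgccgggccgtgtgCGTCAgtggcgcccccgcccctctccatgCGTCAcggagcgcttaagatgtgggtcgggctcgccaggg
Nr4a2: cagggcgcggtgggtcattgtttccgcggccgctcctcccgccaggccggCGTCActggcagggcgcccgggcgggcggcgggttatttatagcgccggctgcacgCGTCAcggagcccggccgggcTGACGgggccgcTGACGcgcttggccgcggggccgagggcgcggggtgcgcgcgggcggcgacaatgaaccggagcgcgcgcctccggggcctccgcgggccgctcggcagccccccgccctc
Dusp1: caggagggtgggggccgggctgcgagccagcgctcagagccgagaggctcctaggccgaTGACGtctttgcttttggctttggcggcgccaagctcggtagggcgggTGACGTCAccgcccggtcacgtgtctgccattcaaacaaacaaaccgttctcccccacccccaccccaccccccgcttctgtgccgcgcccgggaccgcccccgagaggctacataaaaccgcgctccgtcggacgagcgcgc
Nr4a1 and Nr4a2, which rose, each hold 4 short sites and no full element, and Dusp1, which fell, holds 1 full element and a further short site. Over the whole RefSeq window, which also takes in 50 bases after the start, the full element was found in 4 of 130 genes that rose (3.08%), in 1 of 81 that fell (1.23%) and in 29 of all 857 tested genes with a promoter (3.38%). The short site was found in 29.2%, 32.1% and 31.4% of these. A match describes letters and not a site in use.

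The largest rise was that of a chemokine receptor. Ccr2, the receptor for CCL2 that brings monocytes into tissue, read 10.61, 10.81 and 10.52 with PF-044 and 9.56, 9.66 and 9.60 without. The treated samples were all higher, by 1.04 ± 0.08 (2.06-fold; adjusted p = 0.000345). Cd180, a Toll-like receptor homologue of B cells and macrophages, read 10.71, 10.84 and 10.70 against 9.89, 9.95 and 9.95, higher in every treated sample, by 0.82 ± 0.05 (1.76-fold; adjusted p = 0.000345). Mmp9, a matrix metalloproteinase, rose by 0.99 ± 0.17 (adjusted p = 0.00739), and Plau, the urokinase that activates plasminogen, by 0.85 ± 0.12 (adjusted p = 0.00327). Fcrls, an Fc receptor-like gene, rose by 0.74 ± 0.10 (adjusted p = 0.00327), and Gata2, a transcription factor of progenitors and mast cells, by 0.79 ± 0.14 (adjusted p = 0.00757). These 6 genes were robust to the choice of samples. Mmp9 and Plau stood at 34 to 83 and 23 to 51 count equivalents, so their sizes are less exact than those of Ccr2, at 886 to 2420. The rest of the 15 largest rises were Egr2 and Ptgs2, the cytokines Lif and Il1b described with their group, Timeless of the replication fork (0.82), the thymidine kinase Tk1 (0.81), the mitotic gene Cdca8 (0.75), the calcium channel gene Cacna1e (0.75) and the transcription factor Runx2 (0.74). With Mki67, which marks cycling cells (0.49; adjusted p = 0.00968), and the ribonucleotide reductase subunit Rrm2 (0.60; adjusted p = 0.0277), Tk1 made 3 rises among 12 proliferation genes, of which none fell and 1 had a lower value at an unadjusted p under 0.05. The share of proliferation genes that passed is near the 25.2% over all genes, of which 15.5% were rises. The calls of Tk1, Cdca8, Runx2 and Rrm2 were lost without treated replicate 1, treated replicate 3 or untreated replicate 3, among others, with adjusted p up to 0.0672, 0.137, 0.0716 and 0.107.

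The largest falls were of a heat shock protein, complement factor B and homing receptors. Hspb1, a small heat shock protein, read 4.74, 4.89 and 5.19 in treated and 6.48, 6.23 and 6.27 in untreated samples. No treated sample came near the untreated ones, and the fall was 1.39 ± 0.14 on the log2 scale (2.62-fold lower; adjusted p = 0.00133), at a low level of 29 to 105 count equivalents. Glul, the glutamine synthetase, stood at 10.51, 10.53 and 10.48 against 11.29, 11.47 and 11.50. Its treated samples were nearly equal and all lower, by 1.88-fold (log2 change -0.91 ± 0.06; adjusted p = 0.000345). Arg1, the arginase of alternatively activated macrophages, read 7.59, 7.77 and 7.54 against 8.43, 8.36 and 8.51, lower in every treated sample (log2 change -0.80 ± 0.08; adjusted p = 0.00133). Both Ampd2 and Gmps, enzymes of purine nucleotide metabolism, fell, by 0.77 (adjusted p = 0.00254) and 0.76 (adjusted p = 0.00661). Cd69, an early activation antigen, fell by 0.74 (adjusted p = 0.00133), Fas, the death receptor, by 0.86 (adjusted p = 0.00377), and Stat4, which relays interleukin-12, by 0.84 (adjusted p = 0.00579). Mmp19, a metalloproteinase, fell by 0.99 (adjusted p = 0.00767) at 21 to 52 count equivalents where it was above the floor, which it was not in treated replicate 3. All of these were robust to the choice of samples. Trem1, an amplifier of myeloid inflammation that was at the floor in treated replicates 1 and 2, fell by 0.76 (adjusted p = 0.0123) and its call was lost without treated replicate 1 or 2 or untreated replicate 2 (adjusted p up to 0.0678).

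Chemokine receptors moved in both directions, with 5 of 13 tested genes higher, 4 lower and a median change of -0.07. Beside the rise of Ccr2, the 2 receptors that fell most were those for the homeostatic chemokines that hold cells in or draw them to lymphoid tissue and marrow. Cxcr4, the receptor for CXCL12, read 10.31, 9.99 and 10.26 with PF-044 and 11.44, 11.32 and 11.29 without. The lowest untreated sample was nearly a log2 unit above the highest treated one, and the fall was 2.24-fold (log2 change -1.16 ± 0.09; adjusted p = 0.000345). Ccr7, the receptor for CCL19 and CCL21, read 9.84, 9.57 and 9.80 against 10.84, 10.70 and 10.72, also without overlap (2.03-fold lower; log2 change -1.02 ± 0.08; adjusted p = 0.000345). Cxcr5, the receptor for CXCL13 on B cells, fell by 0.28 (adjusted p = 0.00478). Cxcl13 itself, a chemokine that peritoneal macrophages and stroma make for B cells, also fell, from 10.15, 10.38 and 10.34 to 9.52, 9.86 and 9.57 (-0.64 ± 0.10; adjusted p = 0.00576). Among the other members that passed, Ccr6 (0.72), Cxcr6 (0.66) and Ccr3 (0.62) rose, and Ccr9, at the floor in treated replicate 1, fell (-0.69). Unlike Ccr2, Cxcr4, Ccr7 and Cxcr5, these 4 lost their call when treated replicate 1, treated replicate 3 or another sample was left out, with adjusted p up to values between 0.0759 for Ccr6 and 0.153 for Ccr3. Of the 18 chemokines tested, 4 rose and 1, Cxcl13, fell, and 2 rose and 1 or 2 fell under each of the other scalings. The share of chemokines that passed is near the 25.2% over all genes. Ccl24, an eosinophil chemokine made by alternatively activated macrophages, rose from 10.22, 10.23 and 10.23 to 10.77, 10.85 and 10.74, by 0.56 ± 0.04 (adjusted p = 0.000345). Ccl2, the ligand of CCR2, rose by 0.41 (adjusted p = 0.0136) and the neutrophil chemokine Cxcl2 by 0.20 (adjusted p = 0.0431), both with calls lost without treated replicate 1 or untreated replicate 3 (adjusted p up to 0.0708 and 0.152). The fourth was Cxcl1 (0.22; adjusted p = 0.0469), which lost its call with any 1 sample left out (adjusted p up to 0.141).

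Complement genes fell more often than they rose, with 8 of 13 tested members lower and 2 higher and a median change of -0.24. Cfb, factor B of the alternative pathway, read 7.11, 6.85 and 7.06 in treated and 8.15, 8.20 and 8.25 in untreated samples. All treated samples were lower, by 2.28-fold (log2 change -1.19 ± 0.09; adjusted p = 0.000345). C3, the component on which all pathways converge, went from 7.73, 7.88 and 7.75 to 7.04, 7.12 and 7.22 (-0.66 ± 0.09; adjusted p = 0.00291), with no overlap. C1qc, a chain of the C1q recognition molecule, fell by 0.46 (adjusted p = 0.00539) and C4a by 0.31 (adjusted p = 0.00324). These 4 were robust to the choice of samples. C1qa (-0.17), C1qb (-0.20), C1ra (-0.47) and the anaphylatoxin receptor C5ar1 (-0.24) also fell, each with a call lost without untreated replicate 2 or 3 among others (adjusted p up to 0.136). The members that rose were C3ar1, the receptor for C3a (0.36; adjusted p = 0.00767), and Cd55, an inhibitor of complement on the cell surface (0.20; adjusted p = 0.0163), which lost its call without untreated replicate 2 or 3 (adjusted p up to 0.055). Under the other scalings 5 to 8 members of the list fell and 1 or 2 rose.

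Of 5 genes of the Fc gamma receptor list, which includes the kinase Syk, 2 fell, and of 9 scavenger and phagocytic receptors 3 fell. Fcgr4, an activating receptor for IgG, read 6.88, 7.28 and 6.75 against 7.62, 8.15 and 7.96, lower in every treated sample (-0.94 ± 0.18; adjusted p = 0.00996). Fcgr3 fell by 0.59 ± 0.11 (adjusted p = 0.00916). Fcgr1 differed by -0.55 and did not pass (adjusted p = 0.0725). None of the 5 genes of that list rose, and the median was -0.55. A lower value at an unadjusted p under 0.05 in limma was seen in 4, Syk (-0.13) among them. Leaving out treated replicate 3 or untreated replicate 2 or 3 took Fcgr4 and Fcgr3 to adjusted p values up to 0.0676 and 0.0663. Timd4, which binds phosphatidylserine on dying cells and marks resident peritoneal macrophages, fell from 8.18, 8.19 and 8.21 to 7.75, 7.39 and 7.42 (-0.68 ± 0.11; adjusted p = 0.00551). With Mertk (-0.36) and Cd68 (-0.19) it made 3 falls and no rise among 9 scavenger and phagocytic receptors, and the calls of Mertk and Cd68 were lost in most fits with a sample left out (adjusted p up to 0.125 and 0.135). Itgam, the integrin CD11b of complement receptor 3, went from 12.27, 12.45 and 12.46 to 11.70, 11.91 and 11.91. That is a fall of 0.55 ± 0.08 with no overlap (adjusted p = 0.00456).

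Pro-inflammatory cytokine genes rose in 4 of 12 cases tested and fell in none, also at an unadjusted p under 0.05, with a median of 0.19. Lif, a cytokine of the interleukin-6 family, read 6.31, 5.77 and 5.98 with PF-044 and 5.16, 5.09 and 5.04 without, higher in every treated sample (0.93 ± 0.15; adjusted p = 0.00558), and was robust to the choice of samples. Il1b read 6.78, 6.61 and 6.22 against 5.63, 5.83 and 5.71 (0.82 ± 0.16; adjusted p = 0.0108). Lta rose by 0.67 (adjusted p = 0.0122) and Tnf by 0.41 (adjusted p = 0.0361). Without untreated replicate 3 these 3 lost their calls, with adjusted p up to 0.0648, 0.0595 and 0.104 over all such fits, and all are at 50 to 127 count equivalents. Il6 overlapped between the groups (0.17; adjusted p = 0.404). Nlrp3, the sensor of the inflammasome that matures interleukin-1 beta, rose from 6.95, 6.94 and 7.25 to 7.84, 7.84 and 7.59 (0.71 ± 0.12; adjusted p = 0.00757), and Casp1, the protease of that complex, differed by -0.07 (adjusted p = 0.552). In the NF-kappa B list 4 of 12 rose and 2 fell. Rela, a DNA-binding subunit, rose from 7.39, 7.29 and 7.26 to 8.20, 7.85 and 7.94 (0.68 ± 0.11; adjusted p = 0.00539), and so did Nfkbiz, a nuclear member of the I-kappa B family (0.38; adjusted p = 0.00707), both robust to the choice of samples. The inhibitors Nfkbia (-0.43) and Tnfaip3 (-0.31) fell, with calls lost without untreated replicate 2 among others (adjusted p up to 0.135 and 0.101). Tlr1, which pairs with TLR2, rose by 0.64 (adjusted p = 0.00539) and was the 1 gene to pass among 12 Toll-like receptors and adaptors.

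Genes of alternative activation and of antigen presentation moved in both directions. Beside the fall of Arg1 and the rise of Ccl24, Mrc1, the mannose receptor, rose by 0.53 (adjusted p = 0.0151), Cd163, the haemoglobin scavenger receptor, by 0.53 (adjusted p = 0.0343) and Il10 by 0.38 (adjusted p = 0.0253). Tgfb2 fell from 9.68, 9.62 and 9.58 to 9.02, 9.06 and 9.23 (-0.52 ± 0.07; adjusted p = 0.00254). In all, 4 of the 16 genes of the list rose and 2 fell, and the median was 0.08. The calls of Mrc1, Cd163 and Il10 were lost without untreated replicate 1 or 3 (adjusted p up to 0.0663, 0.126 and 0.0689). Of 9 genes of MHC class II presentation 4 rose and none fell (1, Ctss, was lower at an unadjusted p under 0.05), with a median of 0.19. H2-Eb1 read 11.02, 10.85 and 11.03 against 10.62, 10.33 and 10.42 (0.51 ± 0.08; adjusted p = 0.00676), and H2-DMb1 (0.35), Cd74 (0.26) and H2-Ab1 (0.19) rose less. All 4 calls were lost without untreated replicate 3 (adjusted p up to 0.0521, 0.0631, 0.161 and 0.0763). With the samples centred on their medians 2 of the 9 rose and 1 fell. The class I heavy chains fell by a little, H2-K1 from 12.36, 12.35 and 12.40 to 11.95, 12.01 and 12.07 (-0.36 ± 0.05; adjusted p = 0.00415) and H2-D1 by 0.28 (adjusted p = 0.00775). After quantile normalization neither passed (adjusted p = 0.102 and 0.281). Psmb10, a subunit of the immunoproteasome, rose by 0.31 (adjusted p = 0.0114, and up to 0.0587 without treated replicate 3 or untreated replicate 3). That made 1 rise and 2 falls among 10 genes of MHC class I presentation, with a median of 0.04. Cd274, the checkpoint ligand PD-L1, rose from 8.88, 8.74 and 8.82 to 9.20, 9.23 and 9.23 (0.41 ± 0.05; adjusted p = 0.00254). Among 16 interferon-stimulated genes 4 fell and none rose, also at an unadjusted p under 0.05, with a median of -0.07. The share that passed is near the 25.2% over all genes, of which 9.72% were falls. The largest fall was that of Irf7, a regulator of type I interferon, at 6.65, 6.60 and 6.40 against 7.12, 7.13 and 7.13 (-0.57 ± 0.10; adjusted p = 0.00767). Irf1 (-0.21), Ifi27l2a (-0.37) and Ifi44 (-0.52), the last at the floor in treated replicates 1 and 3, also fell, with calls lost without treated replicate 3 or untreated replicate 2 among others (adjusted p up to 0.0609, 0.172 and 0.168).

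**Figure D2:**
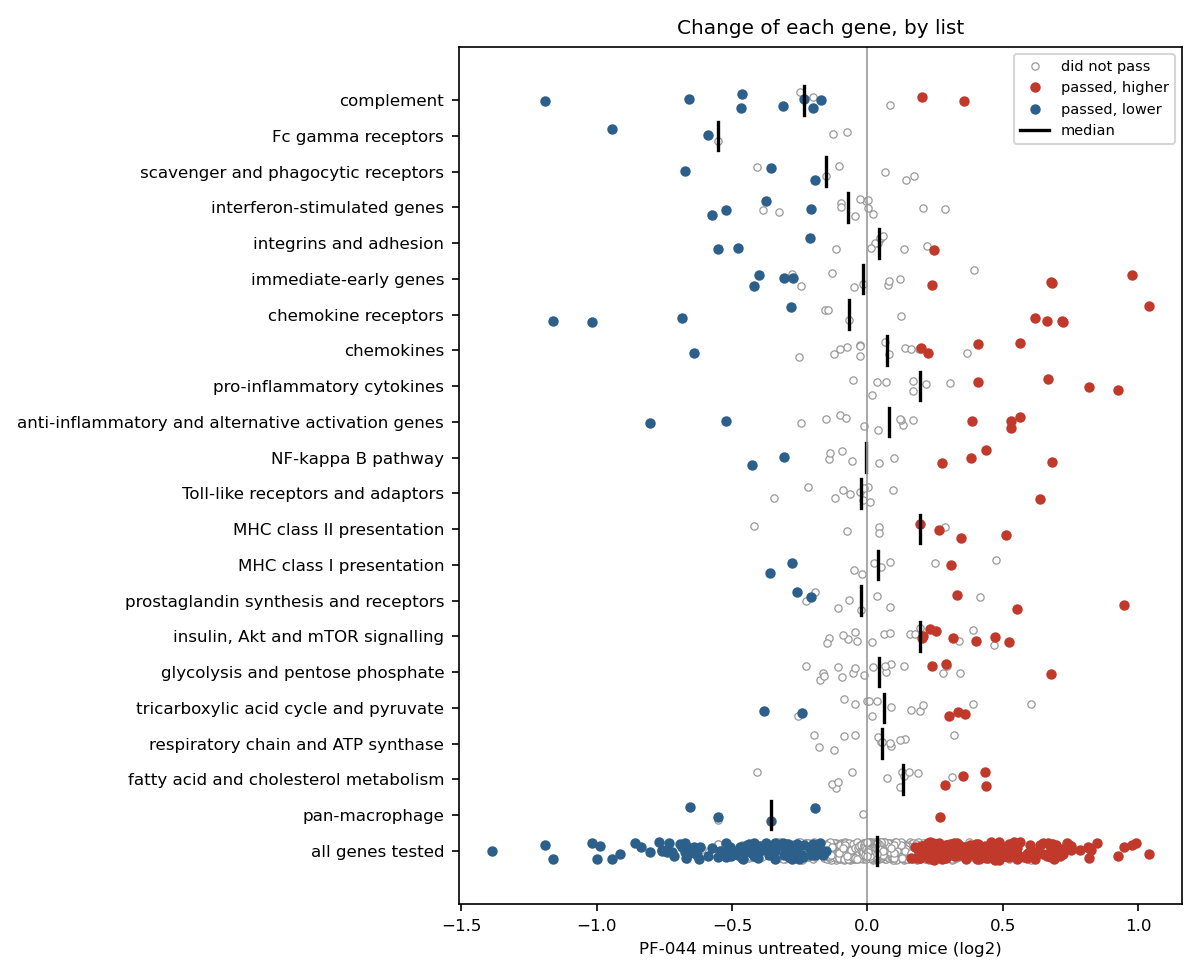
Change with PF-044 in young mice (log2, horizontal axis) of each tested gene in 21 lists, with all 1111 tested genes in the bottom row. Filled points passed (red, higher; blue, lower), open points did not, and the black tick is the median of the row: -0.24 for complement and 0.19 for insulin, Akt and mTOR signalling, beside 0.04 for all genes.

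Most genes of the metabolic lists did not pass. Genes of insulin, Akt and mTOR signalling rose in 8 of 23 cases and fell in none (12 and 0 at an unadjusted p under 0.05), with a median of 0.19. Akt1, a kinase of the pathway, read 10.03, 9.99 and 9.99 with PF-044 and 9.81, 9.72 and 9.71 without, higher in each treated sample by 0.25 ± 0.05 (adjusted p = 0.00835). Mtor rose by 0.52 (adjusted p = 0.0151), Akt2 by 0.47 (adjusted p = 0.0119) and Pik3cd, the leukocyte PI3 kinase subunit, by 0.40 (adjusted p = 0.00861). Smaller rises were those of Insr, the insulin receptor (0.32), Stk11, a kinase that restrains the pathway (0.23), and Rps6kb1, a kinase downstream of mTOR (0.20). Akt1 alone of these 7 was robust to the choice of samples, and the other 6 lost their calls without untreated replicate 2 among others, with adjusted p up to 0.134. Under the other scalings 4 to 6 of the 23 rose and none fell. Hk2, the hexokinase induced by growth signals, rose from 6.80, 6.86 and 6.86 to 7.56, 7.52 and 7.48, without overlap (0.68 ± 0.08; adjusted p = 0.00233), and Pkm, pyruvate kinase, by 0.24 (adjusted p = 0.00821). With Hk3 (0.29) they made 3 rises and no fall among 20 glycolysis genes (7 and 3 at an unadjusted p under 0.05), with a median of 0.04 and a share of rises close to the 15.5% over all genes. The list held 2 rises and 2 falls after median centring and 3 rises and 4 falls with each gene set centred on its own median. Scd1, the desaturase of fatty acid synthesis, rose from 10.35, 10.32 and 10.35 to 10.87, 10.76 and 10.70 (0.43 ± 0.05; adjusted p = 0.00251). Cpt1a, which carries fatty acids into mitochondria, rose by 0.35 (adjusted p = 0.00861), and Acaca (0.29) and Srebf1 (0.44) completed the 4 rises among 16 genes of fatty acid and cholesterol metabolism, of which none fell (6 and 2 at an unadjusted p under 0.05). That share is near the 25.2% of all genes that passed, and 4 rose and 2 fell with each gene set centred on its own median. Hk3, Acaca and Srebf1 lost their calls without treated replicate 1 or untreated replicate 1, among others (adjusted p up to 0.0676, 0.12 and 0.131). None of the 14 respiratory chain and ATP synthase genes passed in limma, 1 had an unadjusted p under 0.05, and their median was 0.05. After quantile normalization 2 of them rose. Acly, which makes cytosolic acetyl-CoA, fell by 0.38 (adjusted p = 0.00201). Kynu, an enzyme of tryptophan breakdown, rose from 7.39, 7.62 and 7.44 to 8.15, 8.22 and 8.19 (0.70 ± 0.08; adjusted p = 0.00233). Hmox1, the haem oxygenase, fell from 8.69, 8.65 and 8.64 to 8.16, 8.18 and 8.13 (-0.51 ± 0.05; adjusted p = 0.00133).

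Marker genes of the cell types moved with treatment in several ways. Among 7 macrophage markers 4 fell and 1 rose, and the sum of their linear levels was 8043 to 9042 in treated and 10669 to 11517 in untreated samples. Adgre1, which encodes F4/80, read 10.20, 10.50 and 10.44 against 11.01, 10.99 and 11.11 (-0.66 ± 0.08; adjusted p = 0.00251), and fell with Itgam, Mertk and Cd68. Csf1r, the receptor that keeps macrophages alive, rose instead, from 9.34, 9.35 and 9.25 to 9.62, 9.57 and 9.55 (0.27 ± 0.05; adjusted p = 0.00861). Of 6 markers of large resident macrophages, Timd4, Adgre1 and Tgfb2 fell and Alox15, a lipoxygenase, rose (0.25; adjusted p up to 0.0955 with a sample such as treated replicate 1 left out), whereas Gata6, the factor that defines these cells, overlapped between the groups at 7.37 to 7.65 (-0.12; adjusted p = 0.368). Their summed level was 17246 to 17970 in treated and 16420 to 16716 in untreated samples, and Alox15 alone made up 14035 to 14724 and 11979 to 12435 of it. Without Alox15 the sum of the others was lower with PF-044, at 2998 to 3251 against 4280 to 4442. Markers of small macrophages and monocytes summed to 4519 to 5119 with PF-044 and 3650 to 3738 without, with Ccr2 and Csf1r the members that rose, 4 that did not pass and Itgax at the floor. Ccr2 alone made up 1470 to 1796 and 755 to 808 of these sums, and Csf1r is also one of the 7 macrophage markers. Among the 4 that did not pass, Fcgr1 was lower in every treated sample (-0.55; unadjusted p = 0.0217 in limma). Apoe, abundant in macrophages, fell from 13.43, 13.60 and 13.58 to 12.85, 12.99 and 12.92 (-0.62 ± 0.07; adjusted p = 0.0023).

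Among 5 B cell markers 1 rose and 1, Cxcr5, fell. Ms4a1, which encodes CD20, overlapped between the groups at 12.09 to 12.86 (0.03; adjusted p = 0.918), and the 5 markers summed to 10445 to 13285 in treated and 9730 to 10782 in untreated samples. The 18 T cell markers summed to 3704 to 3922 and 4124 to 4436, with 1 lower, 1, Lat, higher (0.58) and 16 that did not pass. The 7 dendritic cell markers summed to 1054 to 1162 and 2018 to 2211, of which Ccr7, which other cells express too, made up 761 to 914 and 1661 to 1834. The rest came to 203 to 293 and 334 to 377. Ccr7 and Cd83 (-0.62) fell among them, while Clec9a, Xcr1 and Itgax were at the floor in all 6 samples. Mast cell markers summed to 11975 to 14979 and 10777 to 12165, ranges that overlap. Cpa3 alone made up 6395 to 8858 and 5560 to 6715 of these sums. The rest came to 5514 to 6120 and 5217 to 5560, which overlap too. Among the members Gata2 and Tpsb2 (0.22) were higher and Hdc, the histamine-forming enzyme, was lower (-0.50; adjusted p = 0.00854). None of the 5 tested neutrophil markers passed in limma (1 was higher and 2 were lower at an unadjusted p under 0.05), and Mpo, Elane, Ly6g and Camp were at the floor. The calls of Lat, Cd83 and Tpsb2 were lost without treated replicate 1, among others (adjusted p up to 0.135, 0.0746 and 0.067). The part of these cell types in the changes of Ccr2, Ccr7, Cxcr4, Cxcr5, Cd180 and the macrophage genes was not tested.

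The same drug and course were given to mice of 20 to 22 months, and that comparison shares no sample with the young one. There, 372 of 1161 genes (32.0%) passed. In aged untreated replicate 2, 741 genes were at the floor, against 333 to 527 in the other aged samples, so results were also taken without it. Of the 280 genes that passed in young mice, 277 were tested in aged mice and 130 passed at both ages. These were 86 with the same direction (57 higher and 29 lower, 30.7% of the young genes and 23.1% of the aged ones) and 44 with opposite directions (16 higher in young and lower in aged mice, 28 the reverse). Without the sample that stood apart, 135 passed at both ages, 94 in the same and 41 in opposite directions. In an interaction test over all 12 samples, 306 of 1190 genes (25.7%) had effects that differed between the ages. Among the 280 genes of the young mice 118 did (42.1%), or 134 without that sample. Since these 280 were chosen by one of the effects the test subtracts, that share is a description.

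Genes that moved the same way at both ages included Ccr2, which rose by 1.04 in young and 0.82 in aged mice, and Cfb, which fell by 1.19 and 1.11. S100a11, a calcium-binding protein, fell by 0.66 and 0.74, Jak2, the cytokine receptor kinase, by 0.42 and 0.42, and Nr4a1 rose by 0.68 and 0.90. The test of a difference between the ages did not pass for these 5 (adjusted p 0.233 or more, and 0.223 or more without aged untreated replicate 2). For Ccr2 that difference was 0.22 ± 0.20 and for Cfb -0.09 ± 0.12. Others kept their direction with another size. Hspb1 fell by 1.39 in young and by 2.66 in aged mice (difference 1.27; adjusted p = 0.00251), and Ccl24 rose by 0.56 and 1.87 (difference -1.31; adjusted p = 0.000113). Glul fell by 0.91 in young and 0.56 in aged mice (difference -0.35; adjusted p = 0.0205).

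The 10 genes with opposite directions and the smallest young p-values included the homing receptor Ccr7. It fell by 1.02 in young mice and rose by 0.86 in aged mice, where it stood at 9.29, 9.32 and 9.28 without and 10.16, 10.11 and 10.21 with PF-044. Its level was thus highest in young untreated and lowest in aged untreated mice, with both treated groups between them. Cd180 was ordered the other way, rising by 0.82 in young mice and falling by 0.25 in aged mice, from 11.45, 11.48 and 11.59 to 11.28, 11.26 and 11.22. Arg1 (-0.80 and 0.62), Apoe (-0.62 and 0.43), Adgre1 (-0.66 and 0.43), Tgfb2 (-0.52 and 0.45) and Dusp1 (-0.40 and 0.36) fell in young and rose in aged mice, and Cd274 (0.41 and -0.52) and Prr5, a subunit of mTOR complex 2 (0.69 and -0.32), did the reverse. The difference passed in all 9 of the genes named here, with adjusted p of 0.000311 or less, and 0.000642 or less without aged untreated replicate 2. The aged fall of Prr5 did not pass without that sample (adjusted p = 0.099).

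Several genes moved a little in young mice and far in aged mice the other way. Il10, the anti-inflammatory cytokine, rose by 0.38 in young mice, to 5.81, 5.69 and 5.79, and fell by 2.18 in aged mice (adjusted p of the difference 4.02e-06). Serinc5, a membrane protein of the serine incorporator family, rose by 0.46 and fell by 2.34, and Serinc3 rose by 0.29 and fell by 0.86. In the prostaglandin pathway Ptgs1 (-0.21 and 1.18) and Tbxas1 (-0.26 and 0.68) fell in young and rose in aged mice. H2-Ab1 (0.19 and -0.62) and Btla, an inhibitory receptor of lymphocytes (0.36 and -0.80), rose and fell. The difference passed in these 7 genes with adjusted p of 2.73e-05 or less. Btla apart, their young calls were lost without untreated replicate 3 or treated replicate 1, among others (adjusted p up to 0.0956). Among genes whose young change had a large size, Cxcr4 fell by 1.16 in young mice, against a difference of 0.00 in aged mice (difference -1.17; adjusted p = 0.000127). Lif and Egr2, which rose by 0.93 and 0.98 in young mice, were at the floor in 5 of the 6 aged samples each, so their aged change could not be read. Ptgs2 rose by 0.95 in young mice against 0.01 in aged mice, a difference that did not pass (adjusted p = 0.115) but did without aged untreated replicate 2 (adjusted p = 0.000588). Ccl22, which binds CCR4, differed by -0.10 in young mice (adjusted p = 0.552) and fell by 2.72 in aged mice (adjusted p of the difference 1.42e-05).

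**Figure D3:**
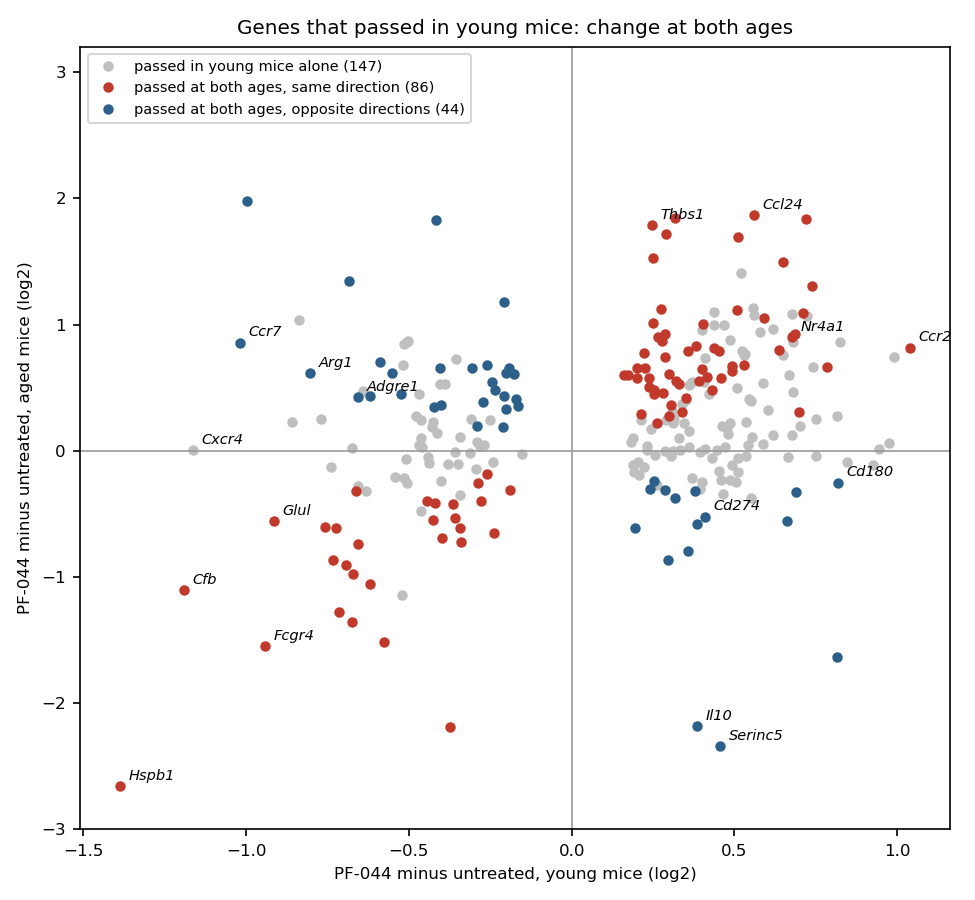
Change with PF-044 in young mice (horizontal axis, log2) against the change in aged mice (vertical axis, log2) for the 277 genes that passed in young mice and were tested in aged mice. Red points passed at both ages in the same direction (86), blue points in opposite directions (44), and grey points passed in young mice alone (147).

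**Figure D4:**
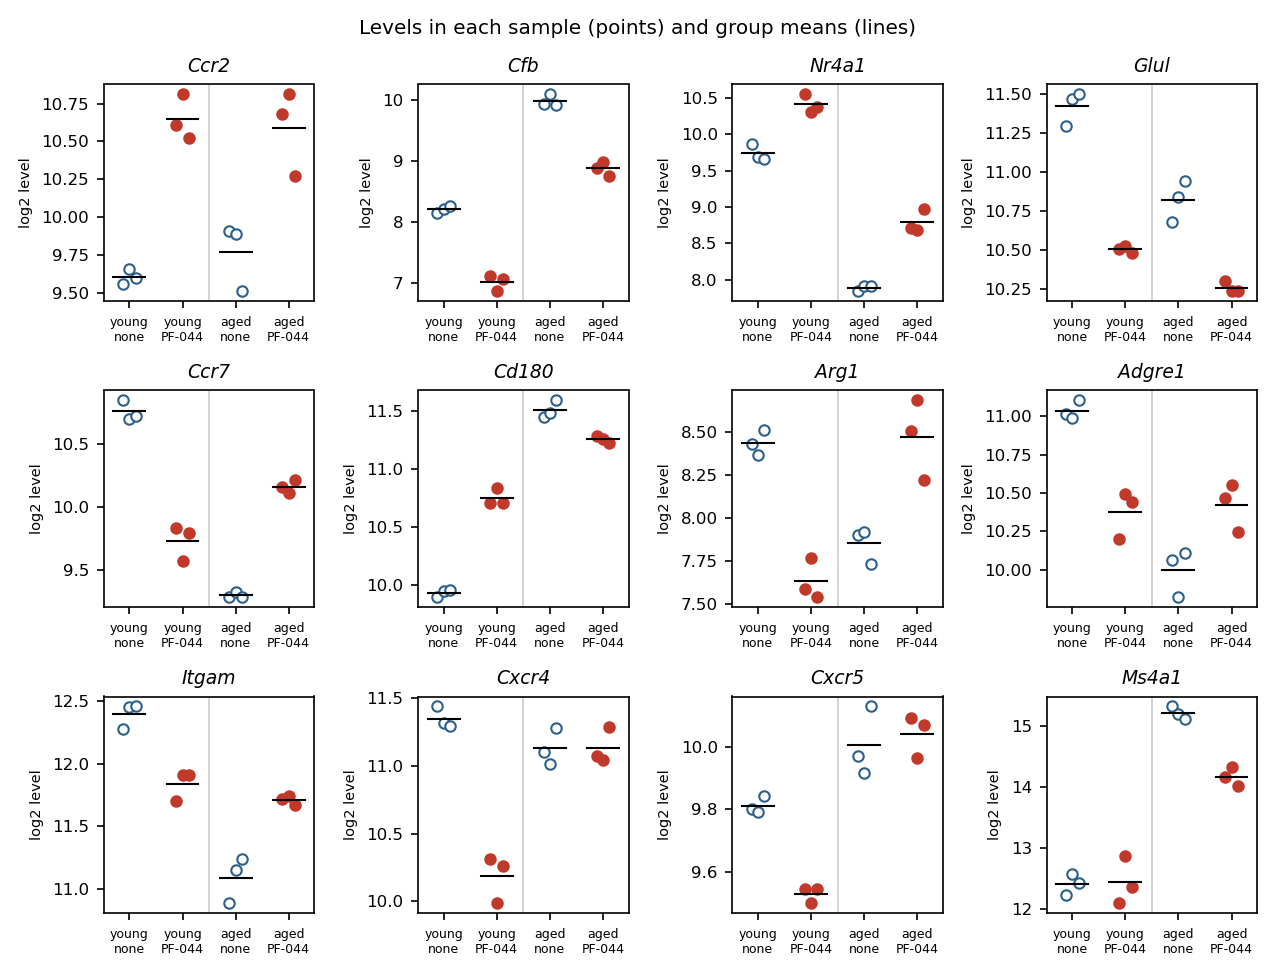
Log2 levels of 12 genes in every sample, in untreated (open, labelled none) and PF-044-treated (filled) mice of both ages, with lines at the group means. Each panel has its own vertical axis, which does not start at 0. Ccr2, Cfb, Nr4a1 and Glul moved the same way at both ages, Ccr7, Cd180, Arg1, Adgre1 and Itgam in opposite ways, Cxcr4 and Cxcr5 passed in young mice alone, and Ms4a1 in aged mice alone.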

How the data were processed

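The deposited table holds log2 values per gene and sample with a common floor of 20 on the linear scale (4.32 in log2). Per the labels, total RNA of peritoneal macrophages was read on the NanoString nCounter, and the submitters' processing notes name limma. How the submitters scaled the values was not found in the sources used here. The low values of the deposited table lay on steps in 3 gene sets per sample, a number fixed before the search. Of 6168 values above the floor, 6166 were within 0.0065 linear units of a whole multiple of their set's step. These multiples gave the count equivalents. No p-value here rests on them.

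Genes above the floor in at least 1 of the 6 young samples were fitted with limma 3.58.1 (R 4.3.3, lmFit, eBayes with trend) and adjusted by Benjamini-Hochberg over all 1111. A gene passed at an adjusted p under 0.05. The ± values are standard errors from that fit, with n = 3 samples per group. The aged comparison used its own 6 samples, and the difference between the ages an interaction over all 12. The young fit was also run on simulated data with known changes and independent noise. That run checks the fitting code and does not bear on the calls made here. The labels number replicates 1 to 3 in each group with no statement that they pair samples, so the numbers were not taken as pairs. Deviations of same-numbered samples correlated at 0.233, 0.192 and -0.082, and those of differently numbered ones at -0.322 to 0.166. For treated replicates 1 and 2 the same number gave the highest value, so a shared structure is not excluded. A fit with the replicate number as a block is given below.

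Named genes are the 15 largest rises and falls among those that passed, up to 10 that passed at both ages in the same and in opposite directions, the 10 smallest p-values of the difference among them, the members with the smallest p-values of each list (up to 4), and a fixed list of prostaglandin, cytokine and marker genes. The genes Ccr3, Ccr6, Ccr9, Cxcr6, Fosb, Jun, Cebpb, Ier3, C1qa, C1qb, C1ra, C5ar1, C3ar1, Cd55, Nfkbia, Tnfaip3, Cd163, Insr, Rps6kb1, Stk11 and Cd83 were added after their values were seen. Some genes that meet these rules are not reported here by name, though they count in the totals. The comparison and all lists were chosen with earlier results of these data known.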

Additional observations from a re-analysis of the deposited data

Results flagged for a closer look

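Of the 123 genes named above as changed in young mice, 69 passed the interaction test (adjusted p under 0.05). Their effect of PF-044 differed between young and aged mice. In 4 of these 69 at least 5 of the 6 aged samples were at the floor, so that no aged change could be read. Over all genes of that test, 306 of 1190 (25.7%) passed. The 123 all passed in young mice, by a change that enters the test, and some were named for the difference itself. Their count is therefore a description. The 21 genes for which the report gives that difference and it passed stand here, as the young minus the aged change in log2. It was positive for Serinc5 (2.80), Ccl22 (2.62), Il10 (2.57), Hspb1 (1.27), Serinc3 (1.16), Btla (1.15), Cd180 (1.07), Prr5 (1.02), Cd274 (0.93) and H2-Ab1 (0.81). It was negative for the homing receptors Ccr7 (-1.88) and Cxcr4 (-1.17) and for the macrophage genes Arg1 (-1.42), Adgre1 (-1.08), Apoe (-1.05) and Tgfb2 (-0.97). The prostanoid enzymes Ptgs1 (-1.39) and Tbxas1 (-0.94) were negative too, as were Ccl24 (-1.31), Dusp1 (-0.76) and Glul (-0.35). For Hspb1, Ccl24 and Glul both effects ran in one direction and differed in size, and for Ccl22 the young change did not pass. All 21 passed without aged untreated replicate 2 as well.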

How the results depend on the processing

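Against 280 genes (172 higher, 108 lower), 173 passed (104 and 69) with all 12 samples in the fit, 183 (110 higher) with no filter on low values, and 37 (19 and 18) when a change had to exceed 1.2-fold. With 1 sample left out the counts ran from 128 to 259 in all, from 66 to 147 for rises and from 62 to 112 for falls. With the replicate block 347 passed (206 and 141); the numbers share no stated pairing, and not every sample correlated best with its own number. The other settings stayed within 1.5 times, including a fit with each gene set centred on its own median, which was added after the data were seen (305; 161 and 144). The aged count and the count of differences stayed within 1.5 times in every setting run (aged 372 to 487, differences 306 to 363).

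None of the 123 genes named as changed reversed in any setting, and 61 passed in all 6 fits with a sample left out. Of the 123, 44 lost their call with all 12 samples in the fit, 41 with no filter on low values and 93 with the 1.2-fold minimum. With the floor of 100, 100 of them could be tested and 5 lost their call. Small medians turned sign: all genes (0.04) to -0.0262 after median centring and -0.0080 after gene-set centring, glycolysis to -0.0213, -0.0013 (quantile) and -0.0220, the respiratory chain to -0.0097 and -0.0104, immediate-early genes to 0.0591 (quantile) and 0.0297 (floor of 100), and prostaglandin genes to 0.0027 (gene-set centring) and 0.21 (floor of 100). Ms4a1 turned to -0.0323 and -0.0329 under these centrings and ranged from -0.18 to 0.21 with a sample left out. The short site gave 29.2%, 32.1% and 31.4% of promoters against 3.08%, 1.23% and 3.38% for the full element, as its shorter length implies. The cause of the other changes was not tested. Genes under about 100 count equivalents, such as Ptger2, Egr2 and Mmp9, are limited by depth.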
